A study of Mus musculus with 23 samples.

Results

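The genes described here build cholesterol and fatty acids or regulate that synthesis. They are 32 genes chosen by symbol, and all 32 had a row among the 24421 rows of a gene count table and were among the 15475 genes that passed a filter on low counts. Counts came from polyadenylated RNA in the mouse hippocampus, taken on postnatal day 14, in 23 libraries. Non-bled controls (NBC) had only a needle prick at the neck. Pups with moderate phlebotomy-induced anemia (mPIA) were bled from a facial vein from postnatal day 3 on, 5.25 µl per g of body weight at each of the 2 bleeds of a day, towards a haematocrit of 25%. Pups with severe anemia (sPIA) were bled the same way towards 18%, and all bled pups then gave 3.5 µl per g once daily until tissue was taken. The groups, in order of anemia, were NBC females (n = 4) and males (n = 3), mPIA females (n = 4) and males (n = 4), and sPIA females (n = 4) and males (n = 4). No strain is named in the labels, no gene was altered, and a library was read as 1 pup, since the design counts males and females per group. The model lowers haematocrit as a whole, so less iron, less oxygen and the handling of bleeding cannot be told apart within it.

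Cells make cholesterol from acetyl-CoA. HMG-CoA synthase (Hmgcs1) begins the committed branch, the mevalonate enzymes make isoprenoid units, squalene is then formed and closed into the first sterol, and a chain of enzymes trims that sterol to cholesterol. In the brain, which is largely cut off from cholesterol in the blood, glia supply much of it during postnatal myelination. When sterol in the membrane of the endoplasmic reticulum is low, Scap carries the SREBP transcription factors (encoded by Srebf1 and Srebf2) to the Golgi, where they are cut and released to the nucleus. Insig1 and Insig2 hold Scap back when sterol is plentiful. Several steps use oxygen or iron: squalene epoxidase (Sqle) needs oxygen, Cyp51 is a haem enzyme, and the methyl oxidase Msmo1, the sterol desaturase Sc5d and the fatty acid desaturases (Scd1, Scd2, Fads1, Fads2) use oxygen with iron at the active site.

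Promoter sequence was available for 25 of the 32 genes in a RefSeq table for GRCm38.p6 that holds 250 bases before and 50 after each gene start. Each window was searched on both strands for TCACNCCAC, the core of a sterol regulatory element where SREBP binds, and for CCAAT, the box of the factor NF-Y; these motifs do not overlap each other. TCACNCCAC stood in 1 of the 25 windows (4%), against 1.44% of the 27025 genes in the table. CCAAT stood in 20 of 25 (80%), against 41.1% of all genes. The stretches below belong to Hmgcs1, whose level differed most often between groups, to Hsd17b7, which was higher in sPIA females, and to Lss, which was lower in them. They are written 5′ to 3′ on the strand of the gene, and capitals mark TCACNCCAC and ATTGG, which is CCAAT read from the other strand.
Hmgcs1, chr13:119690201-119690350, plus strand: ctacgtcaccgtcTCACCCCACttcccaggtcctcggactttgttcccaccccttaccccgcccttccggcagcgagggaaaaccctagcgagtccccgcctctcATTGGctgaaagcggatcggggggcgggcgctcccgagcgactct
Hsd17b7, chr1:169969242-169969355, minus strand: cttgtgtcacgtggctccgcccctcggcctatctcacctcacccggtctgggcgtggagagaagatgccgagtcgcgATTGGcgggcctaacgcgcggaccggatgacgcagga
Lss, chr10:76531455-76531587, plus strand: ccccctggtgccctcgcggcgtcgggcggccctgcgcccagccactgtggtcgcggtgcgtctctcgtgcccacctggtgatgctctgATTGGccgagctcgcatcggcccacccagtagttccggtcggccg
The Hmgcs1 stretch ends at the RefSeq start of the gene, the Lss stretch 17 bases before it and the Hsd17b7 stretch 36 bases before it. In Hmgcs1 the TCACNCCAC match begins 137 bases before the start and the printed CCAAT match 45 bases before it. The Hsd17b7 and Lss windows held CCAAT and no match to TCACNCCAC with these letters.

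Libraries held 15.2 to 26.4 M counts (M for 1e+06), apart from 1 of mPIA females with 44.4 M, and the 32 genes took 0.431% to 0.541% of the counts of a library. The lowest count of any of the 32 in any library was 208. Within groups their median coefficient of variation was 9.24%. Markers of hippocampal excitatory neurons summed to 5300 to 7100 counts per 1e+06 counts of the library (CPM) in every library, and none of their 7 genes was at 0. Mature oligodendrocyte and myelin markers, genes of the cells that make most myelin, ranged from 1450 to 4570 CPM. Whole tissue was measured, so fewer cells of a type and less RNA per cell cannot be told apart. Library names carry code letters or numbers that the labels do not explain. All sPIA libraries and NBC males carry the letter P, mPIA males carry M, and NBC and mPIA females carry the numbers 86, 90 and 91. Only mPIA against NBC in females and sPIA against NBC in males thus stay within a code, and in the second of these the number after the S in the library name, which the labels do not explain either, still differs, 13 to 16 in sPIA males and 38 to 40 in NBC males. Every other comparison crosses codes, and code and group cannot be told apart there.

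Relative to transcript length, the desaturase Scd2 (chr19:44293674-44306864 in mm10, plus strand) had the highest level, 288 CPM per kb on average over the 23 libraries, with a range of 236 to 339. Scd2 introduces the first double bond into saturated fatty acids and is the main stearoyl-CoA desaturase of mouse brain. Hmgcs1 (chr13:119690379-119708260, plus strand) was next with 184 CPM per kb, ranging from 134 to 243. The desaturases of long-chain polyunsaturated fatty acids followed, Fads1 with 69.7 CPM per kb and Fads2 with 52 CPM per kb, then Acly, which makes cytosolic acetyl-CoA from citrate, with 42.8 CPM per kb. Msmo1, Fasn and Srebf2 lay within 1 CPM per kb of each other, at 38.2, 37.8 and 37.7, and their ranges over libraries overlapped. At the low end, Hsd17b7 averaged 6.72 CPM per kb, the isomerase Idi1 5.79 and the cholesterol carrier Stard4 4.97 CPM per kb, also with overlapping ranges. The related desaturase Scd1 averaged 31.4 CPM per kb.

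Severe anemia in females was the comparison with NBC in which the largest number of these genes passed the test. By edgeR's quasi-likelihood test with Benjamini-Hochberg adjustment at 0.05 over all tested genes, 7 of the 32 did so, 4 higher and 3 lower in sPIA females. Over all genes 16% passed, 8.12% higher and 7.86% lower, so a share of 7 in 32 lies near the background. The median log2 change of the 32 was -0.05, with 15 above 0 and 17 below, against 0 for all genes. Higher were Hmgcs1, Hsd17b7, Stard4 and the fatty acid gene Acaca; lower were Tm7sf2, Lss and the desaturase Fads2.

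**Figure D1:**
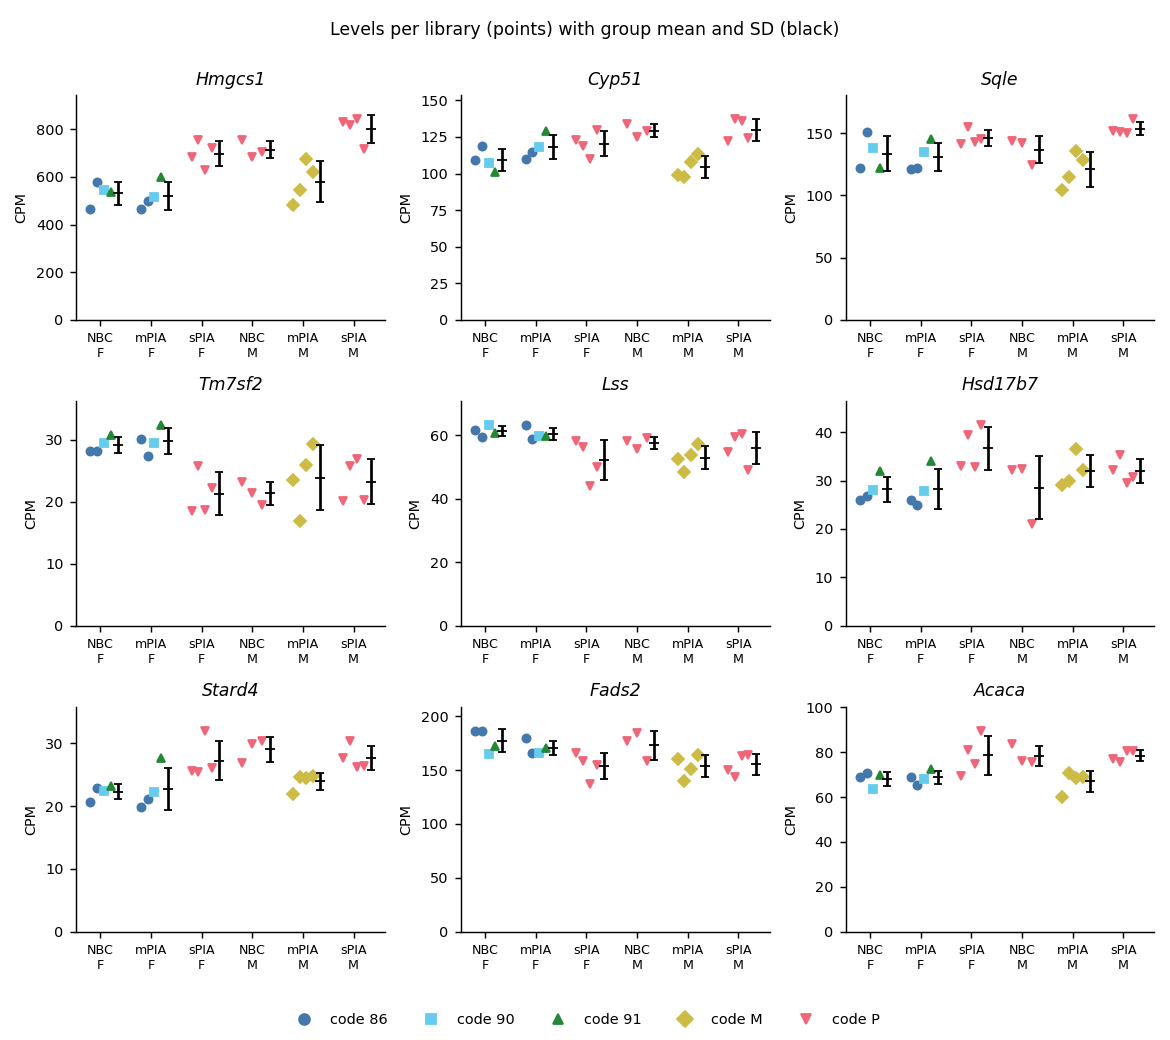
Level of 9 genes in each library, in CPM on a linear axis, by group; each point is 1 library, its shape and colour give the code series of its name, and the black bar is the group mean ± SD. Hmgcs1 lies at 631 to 754 CPM in sPIA females and at 466 to 578 CPM in NBC females, and NBC males, which share the P code, lie at 683 to 754 CPM.

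Hmgcs1 had 685, 754, 631 and 722 CPM in sPIA females, against 466, 578, 545 and 535 CPM in NBC females. All sPIA females were above all NBC females. Its mean was 698 ± 52.8 CPM in sPIA females and 531 ± 46.9 CPM in NBC females (SD, n = 4 each). On the log2 scale the change was 0.40, with an SE of 0.09 (adjusted p = 0.00367 by edgeR). NBC males had 754, 683 and 707 CPM, more than any NBC female. Over the P libraries of all 3 of their groups Hmgcs1 ranged from 631 to 842 CPM (median 722, n = 11), against 464 to 677 CPM in the others (median 539, n = 12). With a trend on GC content removed the log2 change was 0.27 and still passed (adjusted p up to 0.0424 over all alternatives).

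Hsd17b7 (chr1:169949535-169969241, minus strand) reduces a keto group in the removal of methyl groups from the sterol ring. It had 32.9, 39.4, 32.8 and 41.4 CPM in sPIA females, against 25.9, 26.9, 28 and 31.9 CPM in NBC females. The groups did not overlap, and the change was 0.38 (log2, SE 0.12, adjusted p = 0.0322 by edgeR). Stard4 (chromosome 18), which moves cholesterol between membranes, had 25.5, 25.4, 31.9 and 26.1 CPM in sPIA females, against 20.6, 22.9, 22.4 and 23.2 CPM in NBC females. These groups too were apart, with 1 sPIA library well above the other 3, and the log2 change was 0.29 (SE 0.10, adjusted p = 0.0414 by edgeR). In NBC males Stard4 had 26.8, 29.8 and 30.4 CPM, at or above most sPIA females.

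Tm7sf2 (chr19:6062821-6068373, minus strand) encodes a sterol C14 reductase, a step that the lamin B receptor can also carry out. It had 18.5, 25.8, 18.6 and 22.2 CPM in sPIA females, against 28.1, 28.1, 29.5 and 30.8 CPM in NBC females. Every sPIA female was below every NBC female, with a log2 change of -0.45 (SE 0.13, adjusted p = 0.0178 by edgeR). NBC males lay as low as sPIA females, at 23.1, 21.4 and 19.5 CPM. Tm7sf2 shares 532 exonic bases with Vps51 on the same strand, so counts from those bases are uncertain. Of the 3034 stretches of 50 bases in its longest transcript, 0 occur in another annotated gene.

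Lss (chr10:76531588-76557138, plus strand), the cyclase that closes the squalene chain into lanosterol, had 58.3, 56.3, 44.1 and 50.2 CPM in sPIA females, against 61.7, 59.6, 63.2 and 60.9 CPM in NBC females. The groups were apart, but 2 sPIA females lay within 4 CPM of the lowest NBC female, and the log2 change was -0.23 (SE 0.08, adjusted p = 0.041 by edgeR). Fads2 (chr19:10062765-10101746, minus strand), which desaturates the precursors of arachidonic and docosahexaenoic acid, had 166, 158, 137 and 155 CPM in sPIA females, against 186, 186, 165 and 172 CPM in NBC females. Here the highest sPIA female overlapped the lowest NBC female, and the log2 change was -0.20 (SE 0.07, adjusted p = 0.041 by edgeR). Acaca, acetyl-CoA carboxylase and the first committed step of fatty acid synthesis, had 69.4, 80.9, 74.7 and 89.3 CPM in sPIA females, against 68.7, 70.5, 63.6 and 70 CPM in NBC females. The lowest sPIA female lay among the NBC females, and the log2 change was 0.20 (SE 0.07, adjusted p = 0.0465 by edgeR). Of 50-base stretches of the Acaca transcript, 52.6% occur in another annotated gene, mainly Gm5182, so its counts are uncertain as well.

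Hmgcs1 passed without each of the 8 libraries in turn, with log2 changes from 0.34 to 0.45, and the other calls did not. Tm7sf2 missed the threshold without sPIA female 1 (edgeR adjusted p = 0.0528) or 3 (0.0776). Hsd17b7 missed it without NBC female 1 (edgeR adjusted p = 0.099), 2 (0.0745) or 3 (0.0577) and without sPIA female 2 (0.0786) or 4 (0.101). The log2 change was -0.39 for Tm7sf2 and 0.32 or more for Hsd17b7 in those fits. Stard4 was lost without any of the NBC females (edgeR adjusted p = 0.127, 0.0605, 0.0676 and 0.0504 without 1 to 4) and without sPIA female 3 (0.191) or 4 (0.0518). Lss was lost without any of the NBC females (edgeR adjusted p = 0.0963, 0.0683, 0.108 and 0.0721 without 1 to 4) and without sPIA female 3 (0.217) or 4 (0.114). Without sPIA female 3 the Lss change was -0.15 and the Stard4 change 0.21. Fads2 was lost without NBC female 1 (edgeR adjusted p = 0.141), 2 (0.143) or 4 (0.0577) and without sPIA female 2 (0.0654), 3 (0.201) or 4 (0.0881). Acaca was lost without any of the NBC females (edgeR adjusted p = 0.0795, 0.0502, 0.116 and 0.0522 without 1 to 4) and without sPIA female 2 (0.0866) or 4 (0.183). The number of the 32 that passed was 7, 4, 3 and 2 without sPIA females 1 to 4 and 2, 3, 4 and 3 without NBC females 1 to 4. The share of all genes that passed in these fits is not set beside them. Smaller numbers are thus not read as particular to the 32.

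The remaining 25 genes did not pass in the main fit in sPIA females. Nearest was mevalonate kinase (Mvk), with 21.6, 20.8, 18.9 and 19.7 CPM in sPIA females against 28.3, 26.4, 22.9 and 23.6 CPM in NBC females (log2 change -0.32, SE 0.11, edgeR adjusted p = 0.0541). Mvk passed with DESeq2 (adjusted p = 0.0411) and when only the groups compared were fitted (edgeR adjusted p = 0.0268). The fatty acid elongase Elovl6 came next (log2 change 0.16, SE 0.06, edgeR adjusted p = 0.0684), and it passed without NBC female 2 (0.0376) or 3 (0.0401) or sPIA female 1 (0.0495). Elovl6 also passed with DESeq2 (adjusted p = 0.0351). The oxygen-using enzymes of sterol synthesis had log2 changes of 0.13 for Sqle (SE 0.08), 0.14 for Cyp51 (SE 0.07), 0.10 for Msmo1 (SE 0.07) and 0.18 for Sc5d (SE 0.08), and none of these passed (edgeR adjusted p = 0.279, 0.155, 0.381 and 0.142). The largest log2 changes of any of the 32 in either direction were -0.45 and 0.40, both given above.

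**Figure D2:**
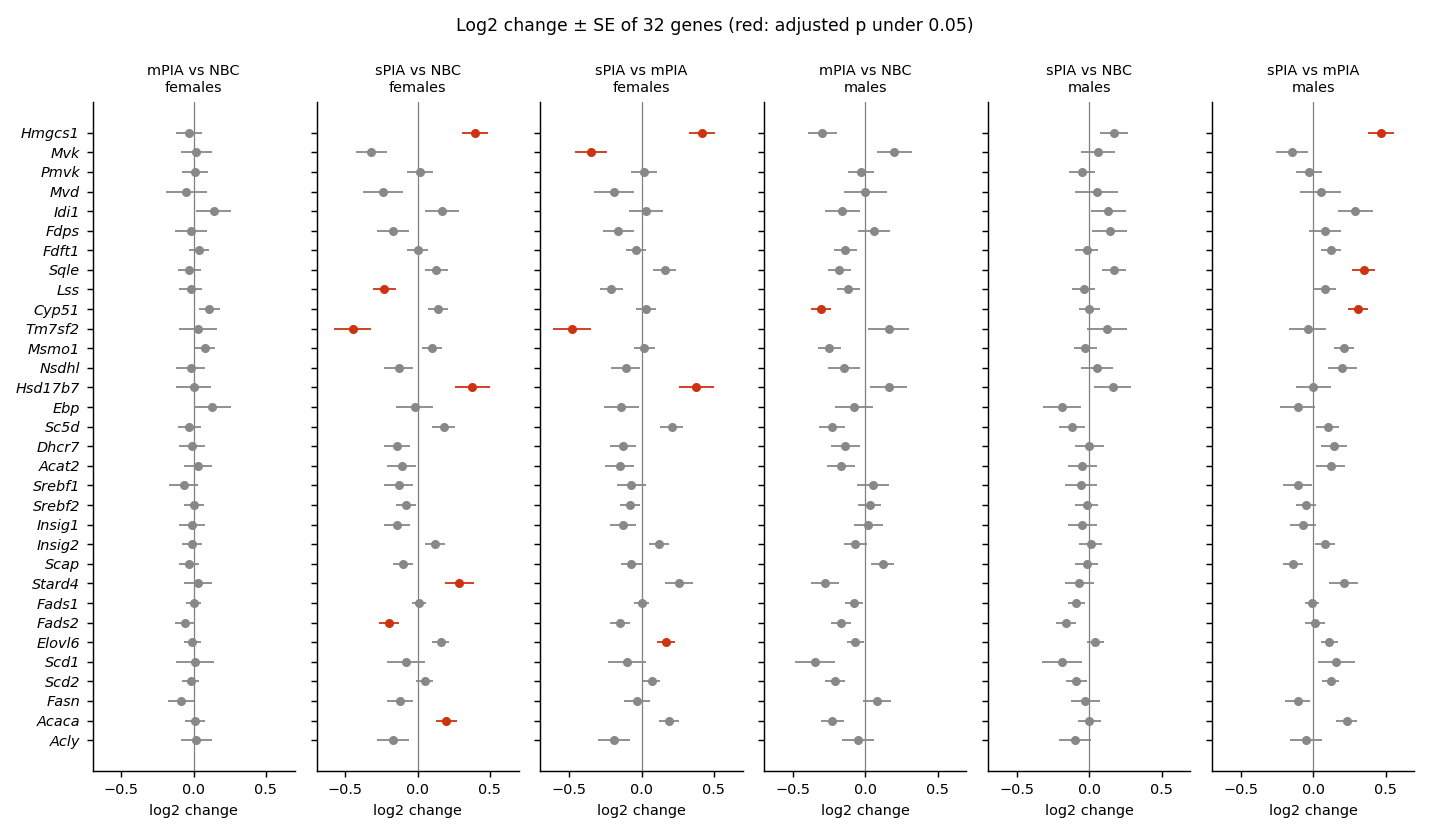
Log2 change with its SE for each of the 32 genes in 6 comparisons, ordered by role in the pathway; red points passed edgeR's test over all genes. In sPIA females against NBC females 7 genes passed, 4 higher and 3 lower, and in sPIA males against NBC males 0 did.

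In sPIA males against NBC males 0 of the 32 genes passed, where 0.194% of all genes did (0.084% higher and 0.11% lower). By edgeR's test 1 of the 32 had an unadjusted p under 0.05, beside 1880 of the 15475 tested genes. DESeq2 and limma-voom also called 0. The smallest p was that of Fads2, with 150, 144, 163 and 164 CPM in sPIA males against 177, 184 and 158 CPM in NBC males. These values overlapped, with a log2 change of -0.16 (SE 0.07, edgeR adjusted p = 0.379). Sqle had 152, 151, 150 and 161 CPM in sPIA males against 144, 142 and 124 CPM in NBC males, and the groups were apart (log2 change 0.17, SE 0.08, edgeR adjusted p = 0.431). Hmgcs1 had 832, 817, 842 and 716 CPM in sPIA males against 754, 683 and 707 CPM in NBC males. The sPIA males were higher in 3 of 4, and the change of 0.17 had an interval of 2 SE from -0.03 to 0.36 (edgeR adjusted p = 0.51), which does not show that the groups were alike. The median log2 change of the 32 was -0.02, with 12 above 0 and 20 below, against 0 for all genes. Choroid plexus markers had log2 changes below 0 in 5 of 5 (median -4.07), all 5 with an unadjusted p under 0.05 and none passing, with sums of 16 to 153 CPM in sPIA males and 13.1 to 4570 CPM in NBC males. Of 5 endothelial markers 1 passed, higher in sPIA males, with sums of 188 to 239 CPM in sPIA males and 172 to 191 CPM in NBC males. Their part in these values was not tested.

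Whether the sexes differed in their change under severe anemia was tested as the change in females minus the change in males. 0 of the 32 passed by edgeR's test, where 0.95% of all genes did, and 4 of the 32 had an unadjusted p under 0.05, beside 2559 of the 15475 tested genes; DESeq2 and limma-voom also called 0. The smallest p was that of Tm7sf2, with a difference of -0.58 (log2, SE 0.19, edgeR adjusted p = 0.135). That difference sets a lower level in sPIA females beside 20.1, 25.7, 26.9 and 20.2 CPM in sPIA males, which overlap the 19.5 to 23.1 CPM of NBC males. For Hmgcs1 the difference was 0.23 (SE 0.13, edgeR adjusted p = 0.392). A call in females with none in males is therefore not shown to be a difference between the sexes for any of these genes.

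Moderate anemia in females changed none of the 32 genes by the test, where 0.00646% of all genes passed, which is 1 gene. 0 of the 32 had an unadjusted p under 0.05, beside 55 of the 15475 tested genes, and DESeq2 and limma-voom called 0. All log2 changes lay between -0.09 and 0.14, with a median of 0. Hmgcs1 had 464, 501, 516 and 601 CPM in mPIA females against 466, 578, 545 and 535 CPM in NBC females, and the groups overlapped in full. Tm7sf2, lower in sPIA females, had 30.1, 27.3, 29.4 and 32.3 CPM in mPIA females against 28.1 to 30.8 CPM in NBC females. Cyp51 had the smallest p, with 110, 115, 118 and 129 CPM in mPIA females against 109, 119, 107 and 101 CPM in NBC females (log2 change 0.11, SE 0.07, edgeR adjusted p = 1).

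In mPIA males 1 of the 32 passed, lower than in NBC males: Cyp51 (chr5:4081145-4104746, minus strand), lanosterol 14-alpha-demethylase. Of all genes 0.653% passed, 0.155% higher and 0.498% lower. Cyp51 had 99.1, 97.8, 108 and 113 CPM in mPIA males, against 134, 125 and 129 CPM in NBC males. No mPIA male reached the lowest NBC male. The mean was 104 ± 7.39 CPM in mPIA males (SD, n = 4) and 129 ± 4.67 CPM in NBC males (SD, n = 3), a log2 change of -0.31 (SE 0.07, edgeR adjusted p = 0.0419). The call was lost in 6 of the 7 fits without a library: edgeR's adjusted p was 0.0707 and 0.204 without NBC males 3 and 4, and 0.0985, 0.0932, 0.0568 and 0.0518 without mPIA males 1 to 4. Without NBC male 2 it held, and Scd2 passed too, so that 2 of the 32 did. The log2 change stayed between -0.36 and -0.28 in all 7 fits.

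More of the 32 leaned the same way in mPIA males without passing. The median log2 change was -0.10, with 9 above 0 and 23 below, against 0.01 for all genes, and 10 of the 32 had an unadjusted p under 0.05, beside 2475 of the 15475 tested genes. Msmo1, a later enzyme of sterol demethylation, had 99.8, 101, 108 and 106 CPM in mPIA males against 130, 122 and 117 CPM in NBC males (log2 change -0.25, SE 0.08, edgeR adjusted p = 0.109). Hmgcs1 had 483, 544, 677 and 620 CPM in mPIA males against 754, 683 and 707 CPM in NBC males (log2 change -0.30, SE 0.10, edgeR adjusted p = 0.12). Both genes were lower in every mPIA male than in every NBC male, although neither passed. Scd2 had 1500, 1420, 1560 and 1500 CPM in mPIA males against 1620, 1850 and 1730 CPM in NBC males (log2 change -0.21, SE 0.07, edgeR adjusted p = 0.125), again with the groups apart.

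Markers of other cells and of tissue near the hippocampus were also read in these male groups. Summed markers of the choroid plexus, the tissue that secretes cerebrospinal fluid, ranged from 10.4 to 43.8 CPM in mPIA males and from 13.1 to 4570 CPM in NBC males. All 5 had log2 changes below 0 and none passed (smallest adjusted p = 0.0633 by edgeR). Of 4 ependymal markers 2 were lower in mPIA males, with sums of 5.35 to 10.7 CPM in mPIA males and 12.5 to 31.5 CPM in NBC males. The 12 mature oligodendrocyte markers all had log2 changes below 0 and none passed, with sums of 2200 to 3030 CPM in mPIA males and 2220 to 4150 CPM in NBC males. Meningeal fibroblast markers were also below 0 in 5 of 5 and passed in none (median log2 change -0.93), with sums of 66.1 to 94.1 CPM in mPIA males and 98 to 199 CPM in NBC males. So were 7 of 7 astrocyte markers, none of which passed, with sums of 6430 to 7390 CPM in mPIA males and 6820 to 7780 CPM in NBC males. Of 7 excitatory neuron markers 6 were above 0 and 1 below (median log2 change 0.14). Of 5 endothelial markers 3 were above 0 and 2 below. Microglial markers were below 0 in 5 of 5 and oligodendrocyte precursor markers in 4 of 5. None of the markers of these 4 lists passed. The part of all these cells in the Cyp51 result was not tested. The sex difference of the mPIA effect passed in 0 of the 32 and in 0% of all genes; 5 of the 32 had an unadjusted p under 0.05, beside 1103 of the 15475 tested genes, and DESeq2 and limma-voom called 0. For Cyp51 it was 0.42 (log2, SE 0.10, edgeR adjusted p = 0.633).

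Severe anemia was also set against moderate anemia. These comparisons share their sPIA or mPIA libraries with those above and are no independent evidence of them. In males 3 of the 32 passed, all higher in sPIA males, where 4.92% of all genes passed, 2.13% higher and 2.8% lower. Hmgcs1 had 832, 817, 842 and 716 CPM in sPIA males against 483, 544, 677 and 620 CPM in mPIA males. The groups were apart, at 802 ± 58.1 CPM in sPIA males and 581 ± 85 CPM in mPIA males (SD, n = 4 each), with a log2 change of 0.47 (SE 0.09, edgeR adjusted p = 0.00579). Cyp51 had 122, 137, 136 and 124 CPM in sPIA males against 99.1, 97.8, 108 and 113 CPM in mPIA males (log2 change 0.31, SE 0.07, edgeR adjusted p = 0.0102). Sqle (chr15:59315077-59331192, plus strand), which places oxygen on squalene, had 152, 151, 150 and 161 CPM in sPIA males against 104, 115, 136 and 128 CPM in mPIA males. All sPIA males again lay above all mPIA males, with a log2 change of 0.35 (SE 0.08, edgeR adjusted p = 0.0136).

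The median change of the 32 between sPIA and mPIA males was 0.08 (log2), with 20 above 0 and 12 below, against 0 for all genes. Hmgcs1 and Cyp51 passed without each library in turn, and Sqle missed the threshold without mPIA male 1 alone (log2 change 0.29, edgeR adjusted p = 0.0633). Without that library 2 of the 32 passed. These libraries differ in code as in group, P in sPIA males and M in mPIA males. NBC males, which also carry P, had 683 to 754 CPM for Hmgcs1 and 125 to 134 CPM for Cyp51, above all mPIA males. For Sqle they had 124 to 144 CPM, below all sPIA males and overlapping the mPIA males. Of the marker lists, 1 of 7 astrocyte genes, 1 of 5 microglial, 1 of 5 endothelial and 1 of 4 ependymal genes passed, all higher in sPIA males. The astrocyte sums were 6040 to 7780 CPM in sPIA males and 6430 to 7390 CPM in mPIA males, and their part in the result was not tested.

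In females 5 of the 32 passed between severe and moderate anemia, where 16.1% of all genes did (8.67% higher and 7.48% lower), so the share again lies near the background. Hmgcs1 (log2 change 0.42, SE 0.09, edgeR adjusted p = 0.0018), Hsd17b7 (0.38, SE 0.12, adjusted p = 0.0296) and Elovl6 (0.17, SE 0.06, adjusted p = 0.0453) were higher in sPIA females. Tm7sf2 (log2 change -0.48, SE 0.13, edgeR adjusted p = 0.0109) and Mvk (-0.35, SE 0.11, adjusted p = 0.0365) were lower. Mvk, which phosphorylates mevalonate, had 21.6, 20.8, 18.9 and 19.7 CPM in sPIA females against 26.1, 24.2, 24.8 and 27.8 CPM in mPIA females, with no overlap. Elovl6, which lengthens palmitate to stearate, had 156, 165, 158 and 168 CPM in sPIA females against 141, 147, 143 and 143 CPM in mPIA females, also apart. Hmgcs1 passed without each library in turn, and Tm7sf2 in all but the fit without sPIA female 3 (log2 change -0.42, edgeR adjusted p = 0.0526).

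The other 3 calls in that comparison lay near the threshold and were lost in most of the 8 fits without a library, while their log2 changes stayed at 0.33 to 0.49 for Hsd17b7, -0.38 to -0.30 for Mvk and 0.16 to 0.19 for Elovl6. Hsd17b7 was lost without mPIA female 1 (edgeR adjusted p = 0.0927), 2 (0.0926) or 3 (0.0635) and without sPIA female 2 (0.0751) or 4 (0.0974). Mvk was lost without any mPIA female (edgeR adjusted p = 0.0928, 0.0536, 0.0632 and 0.101 without 1 to 4) and without sPIA female 2 (0.0616), 3 (0.115) or 4 (0.0884). Elovl6 was lost without any mPIA female (edgeR adjusted p = 0.104, 0.0573, 0.0773 and 0.065 without 1 to 4) and without sPIA female 2 (0.0837), 3 (0.0608) or 4 (0.103). The number of the 32 that passed was 8, 2, 3 and 2 without sPIA females 1 to 4 and 2, 2, 2 and 5 without mPIA females 1 to 4. Here too the share of all genes that passed is not set beside them, so the numbers are not read as particular to the 32.

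Markers of other cells were read in the female groups as well. In sPIA females against NBC females 3 of 7 astrocyte markers passed, all higher, with sums of 6200 to 7430 CPM in sPIA females and 5680 to 5820 CPM in NBC females. Of 5 endothelial markers 2 passed, both higher, with sums of 195 to 230 CPM in sPIA females and 158 to 171 CPM in NBC females. Of 7 excitatory neuron markers 2 passed, both higher, and 1 had a log2 change below 0 (-0.57). Of all genes 16% passed in that comparison, 8.12% higher. Against mPIA females, whose astrocyte sums were 5550 to 6060 CPM, 2 of 7 astrocyte markers, 1 of 5 endothelial and 2 of 7 neuron markers were higher in sPIA females. Of all genes 16.1% passed there, 8.67% higher, and 1 neuron marker had a log2 change below 0 (-0.66). None of the 12 mature oligodendrocyte markers passed in either comparison, nor did any choroid plexus or ependymal marker. Choroid plexus markers were above 0 in 2 of 5 against NBC females and in 5 of 5 against mPIA females (median log2 change -0.12 and 1.92). Their sums were 14 to 1370 CPM in sPIA, 35.2 to 2080 CPM in NBC and 23.4 to 249 CPM in mPIA females. Ependymal markers were above 0 in 4 of 4 in both comparisons. The part of these cells in the calls above was not tested.

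Of the regulators, none passed in any comparison, by edgeR, DESeq2 or limma-voom. Srebf2, which encodes the SREBP that acts mainly on cholesterol genes, had 210, 203, 205 and 194 CPM in NBC females, 205, 201, 199 and 208 CPM in mPIA females and 194, 197, 185 and 196 CPM in sPIA females. In males it had 202, 185 and 161 CPM in NBC, 177, 167, 191 and 209 CPM in mPIA and 163, 169, 179 and 207 CPM in sPIA pups. The groups of each sex overlapped, except that all sPIA females lay below all mPIA females, and the log2 changes against NBC ran from -0.08 to 0.03 (SE 0.07 to 0.08).

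Srebf1, whose products act more on fatty acid genes, had 36.6, 33.1, 30.5 and 30.3 CPM in NBC females, 35.1, 31.2, 28.7 and 29.8 CPM in mPIA females and 35.7, 30.2, 25 and 28 CPM in sPIA females. In males it had 25.2, 29.9 and 26.7 CPM in NBC, 31.1, 30.7, 25 and 26.5 CPM in mPIA and 24.9, 25.4, 25.4 and 29.1 CPM in sPIA pups. These groups overlapped within each sex, with log2 changes against NBC of -0.13 to 0.05 and SE of 0.10 to 0.11. Transcript levels say nothing of how much SREBP protein was cut and in the nucleus, which is where its activity is set.

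Insig1, itself a target of SREBP in many tissues, had 54.4, 57.6, 60.6 and 50 CPM in NBC females, 55.6, 49.7, 54.4 and 61.7 CPM in mPIA females and 51.2, 55.2, 47.7 and 47.8 CPM in sPIA females. In males it had 60.2, 54.1 and 51.5 CPM in NBC, 49.6, 61, 59.2 and 53.5 CPM in mPIA and 61.3, 47.3, 57.3 and 47.5 CPM in sPIA pups. Its log2 change was -0.14 in sPIA females (SE 0.09, edgeR adjusted p = 0.319), while Hmgcs1 was higher in the same libraries. Scap had 102, 95.8, 88.2 and 92.4 CPM in NBC females, 92.9, 98.7, 90.5 and 89 CPM in mPIA females and 90.5, 90.9, 85 and 86.6 CPM in sPIA females. In males it had 88.2, 81.5 and 88.1 CPM in NBC, 93.4, 87, 92.3 and 100 CPM in mPIA and 70.9, 82.7, 89.3 and 96.1 CPM in sPIA pups, with wide overlap. The smallest adjusted p of these 4 genes in any of the 6 comparisons within a sex was 0.262 by edgeR, for Scap in sPIA against mPIA males (log2 change -0.14, SE 0.07). Several of their near-zero changes take the other sign with a GC trend removed or a library left out.

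**Figure D3:**
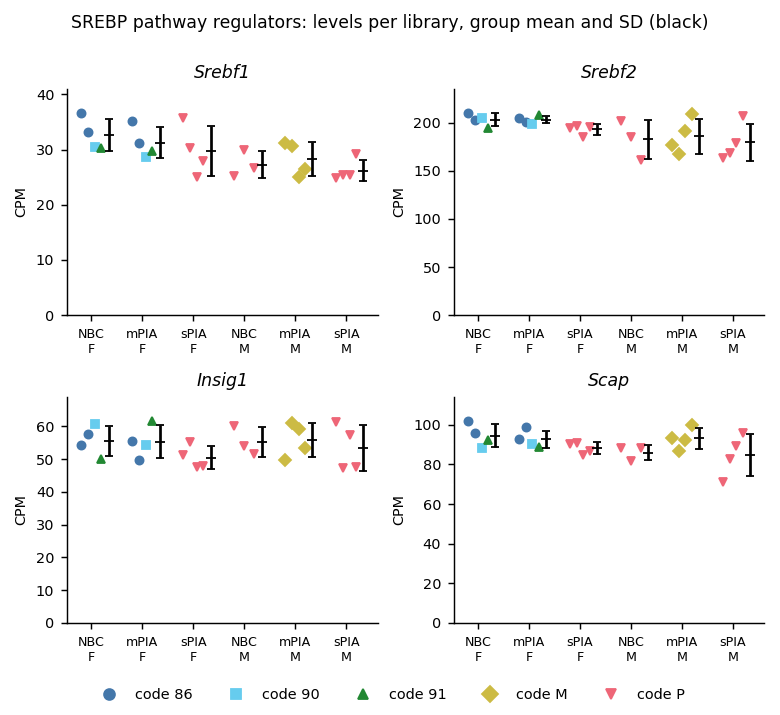
Level of the regulators Srebf1, Srebf2, Insig1 and Scap in each library, in CPM on a linear axis, by group; each point is 1 library, its shape and colour give the code series, and the black bar is the group mean ± SD. Groups lie close together in all 4 genes, with Srebf2 between 161 and 210 CPM over all libraries.

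The changes of the 32 genes were ordered along GC content, the share of G and C in the transcript, which can affect amplification and sequencing. The 32 transcripts range from 41.9% to 59.1% GC with a median of 49.6%, against 49.8% over all tested genes. Hmgcs1 (43.1%) and Hsd17b7 (43.9%) are at the low end, and Fasn and Srebf2 (57.9% each) near the high end. As a description across genes, which are no replicates and share the libraries, Spearman's rho between log2 change and GC was -0.65 over the 32 in sPIA against NBC females, and -0.46 over all tested genes. It was -0.67 over the 32 between sPIA and mPIA males (-0.42 over all), -0.58 between sPIA and mPIA females (-0.45 over all) and 0.56 in mPIA against NBC males (0.25 over all). In the comparisons within a code it was -0.24 (mPIA against NBC females, -0.01 over all) and -0.20 (sPIA against NBC males, -0.21 over all).

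**Figure D4:**
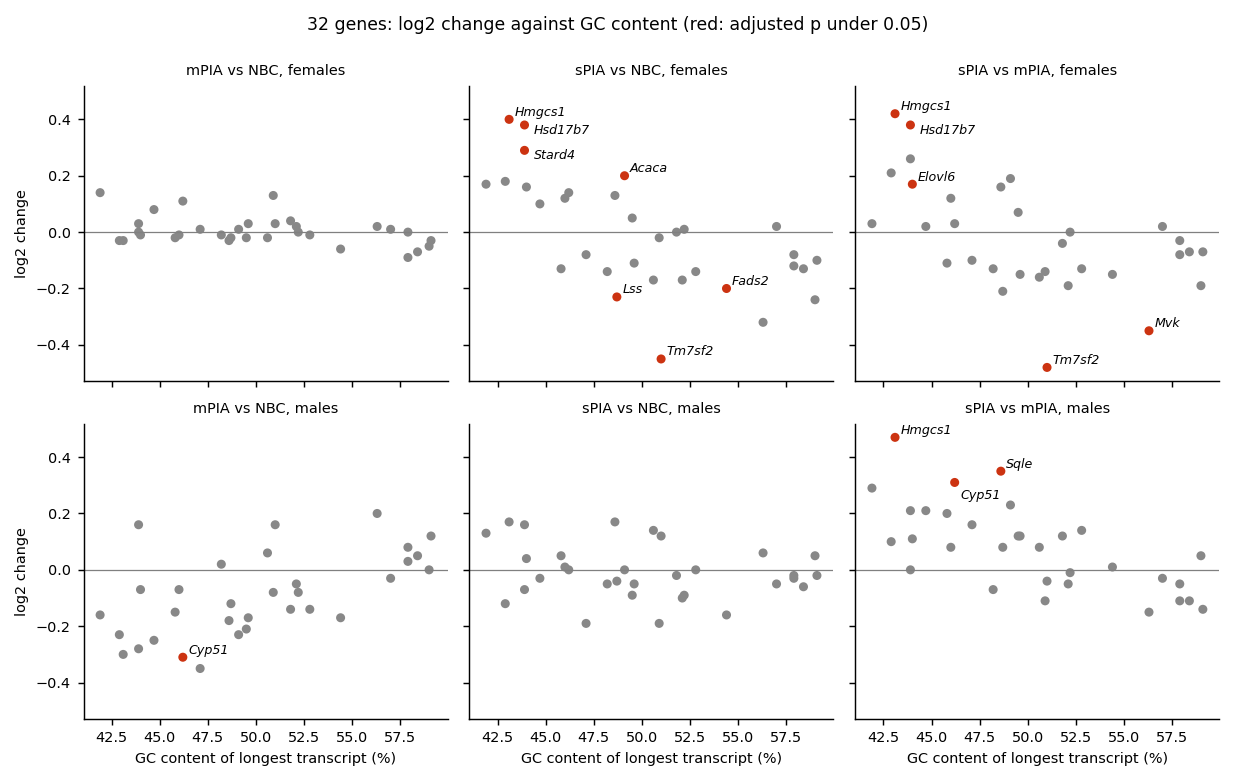
Log2 change of the 32 genes against the GC content of their transcript, in percent, in 6 comparisons; each point is 1 gene, and named red points passed edgeR's test over all genes. In sPIA against NBC females the changes fall with GC, with a Spearman's rho of -0.65 over the 32 genes.

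With a smooth GC trend taken out of each library, 3 of the 32 passed in sPIA against NBC females: Hmgcs1 (log2 change 0.27), Tm7sf2 (-0.42) and Lss (-0.24). The share of all genes that passed in this fit is not set beside it, so the smaller number is not read as particular to the 32. Hsd17b7 (0.27, edgeR adjusted p = 0.169), Stard4 (0.18, adjusted p = 0.2), Fads2 (-0.10, adjusted p = 0.288) and Acaca (0.20, adjusted p = 0.0571) did not. Between sPIA and mPIA females Hmgcs1 and Tm7sf2 passed and Hsd17b7, Mvk and Elovl6 did not, with log2 changes of 0.27, -0.21 and 0.06 for the last 3. Between sPIA and mPIA males Hmgcs1 (0.37), Sqle (0.34) and Cyp51 (0.26) all still passed. In mPIA against NBC males Cyp51 did not (-0.28, edgeR adjusted p = 0.0571). Hmgcs1 is thus the gene that passed in all 3 of its comparisons under every alternative run, and each of those comparisons crosses library codes. Of its 50-base stretches 13.6% are shared with Gm48342, an annotated gene on the opposite strand.

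A wider list of 48 genes of sterol and fatty acid metabolism outside the 32 was also read off the same fit, and 47 had a row and were tested. In sPIA against NBC females 9 of 47 passed, 3 higher and 6 lower, beside 16% of all genes. Tecr, the last reductase of fatty acid elongation, averaged 188 CPM in sPIA females (171 to 203 CPM) and 263 CPM in NBC females (238 to 287 CPM; log2 change -0.48, SE 0.08, edgeR adjusted p = 0.000185). Cyp46a1, the neuronal enzyme that turns cholesterol into 24-hydroxycholesterol for export, averaged 97 ± 5.86 CPM in sPIA females and 133 ± 11.9 CPM in NBC females (SD, n = 4 each; log2 change -0.45, SE 0.08, edgeR adjusted p = 0.00024). Abcg4, a sterol transporter, was lower too (log2 change -0.36, SE 0.08, edgeR adjusted p = 0.00278), and the oxysterol hydroxylase Cyp7b1 was higher (0.37, SE 0.08, adjusted p = 0.00187). With a GC trend removed Abcg4 (-0.20, edgeR adjusted p = 0.0547) and Cyp7b1 (0.22, adjusted p = 0.0679) did not pass, while Tecr (-0.33) and Cyp46a1 (-0.28) did.

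In sPIA against NBC males 1 of the 47 passed, beside 0.194% of all genes: Acss2, which makes acetyl-CoA from acetate. It averaged 35.7 ± 2.17 CPM in sPIA males (SD, n = 4) and 54.2 ± 8.73 CPM in NBC males (SD, n = 3), and the highest sPIA male (37.8 CPM) was below the lowest NBC male (44.2 CPM). Its log2 change was -0.60 (SE 0.12, edgeR adjusted p = 0.0332). This is the only call of a lipid gene from these lists in a comparison with NBC that stays within a library code. The number after the S still differs there, 13 to 16 in sPIA males and 38 to 40 in NBC males. Choroid plexus sums reached 153 CPM in sPIA males and 4570 CPM in NBC males, and their part in this call was not tested. The call held without NBC males 2 and 3 and was lost without NBC male 4 (log2 change -0.51, edgeR adjusted p = 0.232) and without sPIA males 1 to 4 (0.0746, 0.0697, 0.0635 and 0.0668). It was also lost when only the groups compared were fitted (edgeR adjusted p = 0.145), with a replicate block (0.0503), with that block and a GC trend removed (0.0617) and with limma-voom (0.0685). Between sPIA and mPIA males 5 of 47 passed, beside 4.92% of all genes, among them Acss2 (log2 change -0.61, SE 0.12, edgeR adjusted p = 0.00579) and Cyp46a1 (-0.38, SE 0.08, adjusted p = 0.00583), both lower in sPIA males. Fabp7, a fatty acid carrier of astrocytes and their precursors, and the NADPH source Me1 were higher (log2 change 0.85, SE 0.17, adjusted p = 0.00929, and 0.30, SE 0.07, adjusted p = 0.0125 by edgeR). With a GC trend removed Cyp46a1 (-0.23, edgeR adjusted p = 0.0734) and Me1 (0.24, adjusted p = 0.0568) missed the threshold, as did Me1 without mPIA male 1 (0.26, adjusted p = 0.0569). Between sPIA and mPIA females 7 of 47 passed, 3 higher and 4 lower, near the background of 16.1% of all genes, among them Tecr (log2 change -0.49) and Cyp46a1 (-0.43). In mPIA against NBC 0 of 47 passed in either sex by edgeR, with an unadjusted p under 0.05 in 0 of 47 in females, beside 55 of the 15475 tested genes, and in 8 of 47 in males, beside 2475 of the 15475.

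Within groups, several sterol genes varied together with Hmgcs1. Each gene's log2 level was taken as its deviation from the mean of its group, so that differences between groups drop out, and Pearson's r with Hmgcs1 was computed over the 23 libraries for the other 31 genes. Hmgcs1 was picked for this after its values were seen. The median r was 0.40 over the 31 and 0.01 over all other tested genes, and 11 of the 31 (35.5%) had an r of 0.5 or more, against 1.54% of all other genes. With a GC trend removed the median was 0.45, and 13 of the 31 reached 0.5, against 1.21% of all other genes. The highest r were those of Sqle, Sc5d, Fdft1 (squalene synthase), Cyp51, Idi1 and Msmo1, all enzymes of sterol synthesis, at 0.74 to 0.61.

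**Figure D5:**
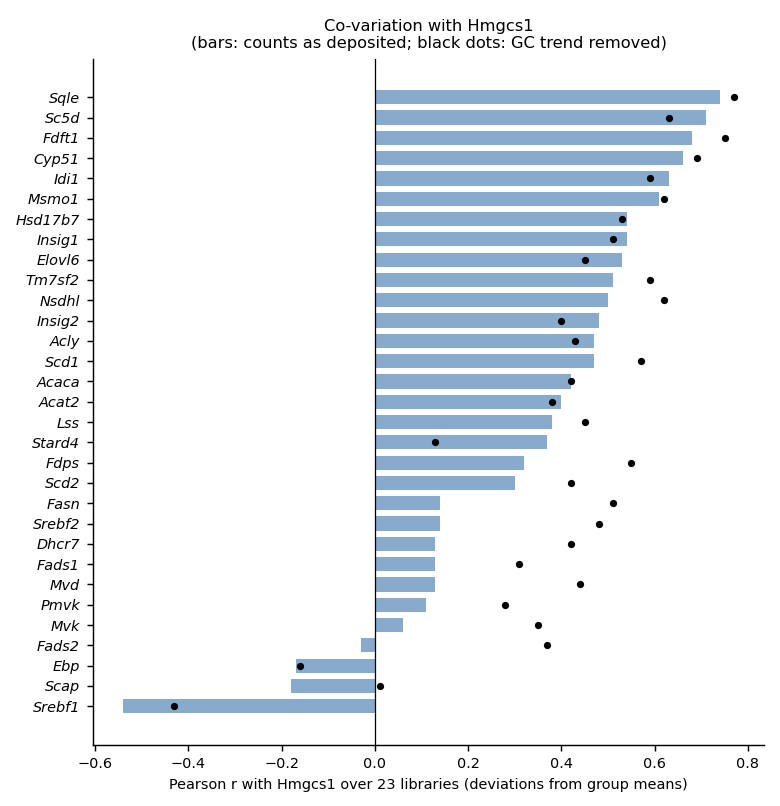
Pearson's r (x axis) between Hmgcs1 and each of the other 31 genes (y axis) over 23 libraries, from deviations of log2 CPM from group means; bars are from the counts as deposited and black dots from counts with a GC trend removed. Sqle has the highest bar at 0.74 and Srebf1 the lowest at -0.54.

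For Sqle the r of 0.74 had a permutation p of 0.00176 and Spearman's rho was 0.73 (p = 0.00228), from 100000 permutations within groups, two-sided (Benjamini-Hochberg adjusted p = 0.0182 and 0.0236 over the 31 relations). Without the 2 libraries farthest from the median of Hmgcs1, mPIA males 1 and 3, it was 0.61. It was 0.08 over the 11 P libraries and 0.91 over the other 12, so for Sqle the relation was not seen in the P libraries. The other 12 mix the codes 86, 90, 91 and M. Groups of NBC and mPIA females each hold more than 1 code, so deviations from their means can still carry code differences. For Sc5d r was 0.71 (permutation p = 0.00014, adjusted 0.00434) and rho 0.71 (p = 7e-04, adjusted 0.0155), with 0.68 without the same 2 libraries, 0.60 in the P libraries and 0.86 in the others. For Cyp51 r was 0.66 (permutation p = 0.0048, adjusted 0.0248) and rho 0.67 (p = 0.00465, adjusted 0.0253), with 0.68 without those libraries, 0.60 in the P libraries and 0.71 in the others. Fdft1, Idi1, Msmo1, Hsd17b7 and Scd1 also passed after adjustment by both measures. In the P libraries their r was 0.42, 0.39, 0.37, 0.34 and 0.54. In the others it was higher, at 0.81, 0.73, 0.73, 0.76 and 0.69. Among the regulators, Srebf1 had an r of -0.54 (permutation p = 0.0235, adjusted 0.0661) and a rho of -0.52 (p = 0.0316, adjusted 0.0753), which did not pass after adjustment over the 31 relations. It was -0.43 without the same 2 libraries, -0.18 in the P libraries and -0.80 in the others. Insig1 went the other way, with an r of 0.54 (permutation p = 0.0202, adjusted 0.0627) and a rho of 0.56 (p = 0.0174, adjusted 0.0497). It thus passed by rho and not by r. Its r was 0.46 without those libraries, 0.65 in the P libraries and 0.51 in the others. Scap had an r of -0.18. Srebf2 had an r of 0.14 and Fasn, the fatty acid synthase, also of 0.14, and these became 0.48 and 0.51 with a GC trend removed.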

How the data were processed

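Per the labels' protocols, hippocampal RNA was isolated with an Invitrogen kit and sequenced from Illumina TruSeq libraries. The authors deposited raw read counts per gene symbol for 23 libraries, not normalized, as the values show. FastQC, TopHat2 2.0.13, Subread and edgeR are named with build mm10 per the submitters' processing notes. Neither the notes nor the labels give their roles, the annotation, or the strand and multi-mapping settings. Of the 24421 rows, 23350 (95.6%) carry a GENCODE M21 symbol, which gave positions, transcript length and GC content (longest transcript, for 96.2% of tested genes). Library pairs within groups differed beyond counting noise (chi-square over its degrees of freedom, 3.09 to 31.3).

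edgeR 4.0.16 (TMM, filterByExpr with minimum count 10 and total 15, robust quasi-likelihood fit of 6 group means over all 23 libraries) tested 8 contrasts, with Benjamini-Hochberg adjustment at 0.05 over 15475 genes. Levels are CPM with TMM sizes. Log2 CPM used a prior count of 2. The GC trend was a lowess curve per library with span 0.3. Alternatives were other scaling, no filter, fewer groups, blocks, GC trend removal, left-out libraries, limma 3.58.1 (voom) and DESeq2 1.42.0 in R 4.3.3. Figures used Python 3.11.15 with matplotlib 3.10.9. Simulated data served to check the fit, with changes set in genes drawn from all tested ones. Over the comparisons within a sex, 14% to 29.3% of 1.25-fold changes and 50.5% to 59.6% of 1.5-fold changes were recovered. Of the calls, 3.33% to 8.33% were false. Genes that did not pass are thus not shown to be unchanged.

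The 32 genes and all lists were chosen with earlier results of these data known. Full values were to be given for up to 6 called genes per comparison with NBC, by smallest p, and for Srebf1, Srebf2, Insig1 and Scap. From the wider list, up to 4 called genes per comparison were to be named. Acaca, Mvk, Sqle, Elovl6, Msmo1 and Scd2 were named after their values were seen.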

Additional observations from a re-analysis of the deposited data

Results flagged for a closer look

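In 12 of the 160 sets of 4 libraries (32 genes in 5 groups), 1 library stood apart from the other 3 by Dixon's test, and chance gives about 1 in 20. Library 4 of mPIA females stood high for Acly (258 CPM, the others 179 to 180), Fdft1 (103 CPM, the others 90.7 to 91.6) and Insig2 (52.6 CPM, the others 43.4 to 44.5). Library 4 of NBC females was high for Acly (232 CPM, the others 182 to 189) and low for the sterol isomerase Ebp (14.5 CPM, the others 20.8 to 21.7). Library 3 of sPIA females was low for both stearoyl-CoA desaturases, Scd1 (84.2 CPM, the others 154 to 162) and Scd2 (1290 CPM, the others 1660 to 1700), and high for Stard4 (31.9 CPM, the others 25.4 to 26.1).

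Library 1 of mPIA males was low for Insig2 (44.6 CPM, the others 48.3 to 49) and Stard4 (21.9 CPM, the others 24.5 to 24.7). Library 4 of sPIA males was high for Srebf1 (29.1 CPM, the others 24.9 to 25.4), and library 1 of sPIA males was high for Elovl6 (182 CPM, the others 163 to 165).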

How the results depend on the processing

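The 16 calls of single genes were read in alternative fits that the genes share, which gave 255 pairs of a call and a setting. Of these pairs 167 kept the call, 88 lost it and 0 turned its direction. Hmgcs1 lost none of its 3 calls. Over 13 calls of genes from the wider list, 187 of 207 alternatives kept the call, 20 lost it and 0 turned its direction. Of 242 alternatives of 14 changes that had not passed, 7 gave a call. The number of the 32 genes called in mPIA against NBC males, 1, became 0 when only the groups compared were fitted, with a replicate block, with a GC trend removed, with both, and with limma-voom, and ran from 0 to 2 with a library left out. In sPIA against NBC females, 7 became 9 with DESeq2 and 6 with limma-voom. It became 3 with a GC trend removed and 1 with that and a replicate block, and ran from 2 to 7 with a library left out. Between sPIA and mPIA females, 5 became 7 with DESeq2 and 7 with limma-voom. It became 2 with a GC trend removed and 2 with that and a replicate block, and ran from 2 to 8. Between sPIA and mPIA males, 3 became 5 with DESeq2 and ran from 2 to 3. The causes were not tested. For the alternative fits in all sections, the share of all genes that passed is not set beside the counts. A change in count is thus not read as particular to the 32 genes. Median-of-ratios scaling and no low-count filter kept all counts of calls within 1.5 times. The code numbers were fitted as a block in mPIA against NBC females alone, where the count was 0 with and without them. No comparison with a call was adjusted for code.

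Replicate numbers are shared between groups, but the deviations of same-numbered libraries from their group means did not all correlate above 0.1 (lowest to highest, 0.04 to 0.15 for mPIA with NBC females and -0.12 to 0.09 for the other pairs of groups). The number was treated as a name in the main fit. For mPIA with NBC females, 3 of 4 pairs were above 0.1, and replicates 3 and 4 of these groups share the codes 90 and 91. Some of the numbers that follow the letters P and M in library names also recur between groups, and the labels do not explain them. A pairing of libraries is thus not excluded. With a replicate block, 6, 4 and 4 of the 32 genes passed in sPIA against NBC females, sPIA against mPIA females and sPIA against mPIA males, and 0 in the other comparisons. With this block and a GC trend removed, 2 passed between sPIA and mPIA males.

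The regulators, and Hmgcs1 and Tm7sf2 in mPIA females, none of them called, have changes so near 0 that their sign depends on the setting (log2). With a GC trend removed, and with that and a replicate block, Srebf1 was -0.05 and -0.09 in mPIA against NBC males and 0.03 and 0.03 in sPIA against NBC females. Srebf2 was -0.07 and -0.05 in mPIA against NBC males, 0.09 and 0.09 in sPIA against NBC females and 0.03 and 0.05 in sPIA against NBC males. Scap was 0.08 and 0.08 in sPIA against NBC females and 0.03 and 0.05 in sPIA against NBC males. With the replicate block alone Srebf1 was 0 in mPIA against NBC males. With a library left out, the ranges against NBC that cross 0 were as follows. In mPIA females they were -0.10 to 0.02 for Hmgcs1, -0.01 to 0.07 for Tm7sf2, -0.02 to 0.02 for Srebf2, -0.06 to 0.04 for Insig1 and -0.06 to 0.01 for Scap. In mPIA males they were -0.02 to 0.12 for Srebf1, -0.07 to 0.09 for Srebf2 and -0.04 to 0.07 for Insig1. In sPIA males they were -0.12 to 0.02 for Srebf1, -0.11 to 0.05 for Srebf2, -0.12 to 0.01 for Insig1 and -0.09 to 0.06 for Scap.

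Limits: groups hold 3 or 4 libraries, counting strand and the handling of shared reads are not given, and 50-base stretches shared with other genes make up 52.6% of Acaca, 45.9% of Acat2, 30.7% of Fdft1 and 30.5% of Idi1. In all comparisons that called any of the 32 genes, library code and group cannot be told apart.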

Other observations

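Acly, ATP citrate lyase, was high in the 3 libraries whose names hold the number 91, which are library 4 of NBC females, of mPIA females and of mPIA males. They had 232, 258 and 233 CPM, against 166 to 201 CPM in the other 20 libraries. Of all tested genes 24 (0.155%) were higher in these 3 libraries than in any other, and 11 (0.0711%) were lower than in any other. Acly was the only one of the 32 genes among them, and none was among the 11. The pattern was noticed after the values were seen, and the labels do not explain the number.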
